A study of Mus musculus with 2 samples.

Results

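The regions described here were 1905 H4K16ac peaks of moderate strength that lay at the ends of protein-coding genes in wild-type macrophages and had no counterpart in macrophages deficient in KAT8. They were chosen from 58229 wild-type and 55149 KAT8-cKO peaks by 3 criteria. The peak's −log10 q (the strength that the authors' peak caller assigned within its own library) was at least 1.301, a q-value of 0.05, and under 5. The peak lay within 1 kb of an annotated end of a RefSeq protein-coding gene, and no KAT8-cKO peak overlapped it by 1 bp or more. Of 5394 wild-type gene-end peaks in that range, 1905 met the last criterion (35.3%, 95% Wilson interval 34.1 to 36.6) and 3489 were overlapped, and these 3489 served as the comparison. Of all wild-type peaks 66.8% had no KAT8-cKO overlap, and of those in the same range of strength 57.9%. Both libraries came from mouse primary bone marrow-derived macrophages, grown with M-CSF (20 ng/ml) and treated for 2 h with R848 (100 ng/ml). One library was from WT cells and the other from KAT8-cKO cells, read as a conditional knockout. No source used here names the Cre driver, the strain, the age or the number of the animals, and how complete the deletion was cannot be read from peak lists. With 1 library per genotype, no difference could be set against variation between animals, no test between genotypes was made, and the intervals cover counting error over peaks or genes only. The selection itself used the wild-type strength and the KAT8-cKO overlap, so the counts and strengths of the members are a description.

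Acetylation of lysine 16 of histone H4 weakens the contact between neighbouring nucleosomes and is found at the starts of many active genes. KAT8 (MOF) is the acetyltransferase that places most of it in mammalian cells, working either in the MSL complex or in the NSL complex, which binds promoters of broadly expressed genes. R848 is a small agonist of the endosomal receptor TLR7, which signals through MyD88 and IRAK kinases to NF-κB and interferon regulatory factors, so a treated macrophage is transcribing cytokine, chemokine and interferon-stimulated genes. In CUT&Tag an antibody directs a transposase to the modified histone, and sequenced fragments pile up into peaks.

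To show the kind of DNA involved, the 250 bases before the RefSeq start are given for 7 genes with such a peak and for 2 genes of the comparison set (GRCm38.p6, the assembly behind mm10; gene strand, 5′ to 3′). In each, the summit of the wild-type peak fell between 250 bases before and 50 bases after the start. Capitals mark matches to any of 12 short promoter motifs described further on, on either strand. The first 4 had the highest folds among members with a summit in such a window: Camsap2 (chr1:136346105-136346354, minus strand), Rgl1 (chr1:152766306-152766555, minus), Heca (chr10:17948068-17948317, minus) and Zfp942 (chr17:21962465-21962714, minus). The next 3 belong to inflammatory genes: Cxcl2 (chr5:90903649-90903898, plus), Klf6 (chr13:5861239-5861488, plus) and Irak3 (chr10:120201598-120201847, minus). Naa30 (chr14:49171996-49172245, plus) and Pik3cb (chr9:99140212-99140461, minus) had overlapped peaks.
Camsap2: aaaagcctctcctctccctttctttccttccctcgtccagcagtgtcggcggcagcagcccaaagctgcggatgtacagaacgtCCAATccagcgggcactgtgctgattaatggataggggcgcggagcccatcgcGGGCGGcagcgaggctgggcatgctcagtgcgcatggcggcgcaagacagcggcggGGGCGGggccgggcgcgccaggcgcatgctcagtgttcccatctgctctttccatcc
Rgl1: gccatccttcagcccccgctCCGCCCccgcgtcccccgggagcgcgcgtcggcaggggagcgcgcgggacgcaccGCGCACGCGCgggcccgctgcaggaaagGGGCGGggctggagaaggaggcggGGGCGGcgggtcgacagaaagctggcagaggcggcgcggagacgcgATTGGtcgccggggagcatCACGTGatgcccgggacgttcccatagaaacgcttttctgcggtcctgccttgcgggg
Heca: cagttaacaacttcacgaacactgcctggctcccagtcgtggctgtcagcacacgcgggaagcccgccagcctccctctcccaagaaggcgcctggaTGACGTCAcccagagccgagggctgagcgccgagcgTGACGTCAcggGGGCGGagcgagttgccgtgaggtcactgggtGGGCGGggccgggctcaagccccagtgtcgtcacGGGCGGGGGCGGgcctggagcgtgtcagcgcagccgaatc
Zfp942: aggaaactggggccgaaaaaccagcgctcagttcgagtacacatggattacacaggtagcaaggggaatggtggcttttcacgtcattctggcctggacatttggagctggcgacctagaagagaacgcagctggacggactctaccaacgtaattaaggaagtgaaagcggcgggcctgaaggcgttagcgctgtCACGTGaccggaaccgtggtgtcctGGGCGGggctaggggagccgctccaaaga
Cxcl2: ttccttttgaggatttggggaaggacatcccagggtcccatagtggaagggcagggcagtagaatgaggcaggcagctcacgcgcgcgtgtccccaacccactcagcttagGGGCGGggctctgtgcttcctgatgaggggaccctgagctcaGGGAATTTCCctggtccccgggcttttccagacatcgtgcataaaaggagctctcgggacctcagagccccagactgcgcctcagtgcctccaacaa
Klf6: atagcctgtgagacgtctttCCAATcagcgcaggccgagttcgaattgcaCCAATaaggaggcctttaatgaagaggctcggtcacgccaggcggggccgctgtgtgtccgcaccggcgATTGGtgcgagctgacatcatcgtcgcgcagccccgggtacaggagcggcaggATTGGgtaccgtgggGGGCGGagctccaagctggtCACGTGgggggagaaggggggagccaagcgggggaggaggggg
Irak3: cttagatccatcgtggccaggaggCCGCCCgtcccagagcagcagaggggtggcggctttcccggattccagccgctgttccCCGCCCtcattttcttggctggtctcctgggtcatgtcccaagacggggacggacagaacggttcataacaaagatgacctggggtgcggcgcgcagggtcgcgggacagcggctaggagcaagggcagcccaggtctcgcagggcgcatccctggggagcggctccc
Naa30: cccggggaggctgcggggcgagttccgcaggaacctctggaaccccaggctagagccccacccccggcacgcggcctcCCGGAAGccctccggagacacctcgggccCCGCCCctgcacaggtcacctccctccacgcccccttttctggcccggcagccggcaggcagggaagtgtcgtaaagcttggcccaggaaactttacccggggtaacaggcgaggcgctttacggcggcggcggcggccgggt
Pik3cb: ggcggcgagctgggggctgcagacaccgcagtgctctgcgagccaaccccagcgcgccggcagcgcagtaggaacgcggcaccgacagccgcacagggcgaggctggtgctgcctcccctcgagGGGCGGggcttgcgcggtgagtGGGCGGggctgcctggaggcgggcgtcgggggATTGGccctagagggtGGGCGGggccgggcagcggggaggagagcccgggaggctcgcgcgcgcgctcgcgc
Most of these sequences are rich in CG pairs, with 31 in the 300-base window of Camsap2, 39 in that of Rgl1 and 20 in that of Zfp942. The window of the chemokine gene Cxcl2 held 11, and it was the only one of the 9 whose printed bases matched the NF-κB motif, at 97 to 88 bases before the start. A GC box occurs in all 9 sequences, with and without a KAT8-cKO counterpart. The promoter table holds more than 1 window for some genes, so a window can lie inside the outermost end of its gene, as at Irak3.

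The number of DNA fragments behind each peak could be recovered from the deposited lists, which sets how firmly a single peak can be read. For 99.9% of the peaks in each list, the fold and the −log10 p were those of a whole number of fragments at the summit over a local background, with the peak caller's pseudocount of 1. The genome-wide background was 3.09 fragments in the wild-type and 3.68 in the KAT8-cKO library, 1.19 times higher, which would make the KAT8-cKO library the deeper one if fragments were extended alike. At that background the weakest peaks had 8 fragments in wild type and 9 in KAT8-cKO cells, and a q-value of 0.05 took 12 and 13. The 1905 members had a median of 15 fragments at the summit (lowest 12, quartiles 13 and 17, highest 63) over a median local background of 3.86. A summit of 12 fragments, the case for 278 members, has a 95% Poisson interval of 6.20 to 21.0 fragments. An absent KAT8-cKO counterpart at such a site therefore means that fewer fragments were seen than a peak requires, and does not show that acetylation was absent. Fewer cells with the mark and less of the mark per cell cannot be told apart. The macrophage label was checked against 12 marker genes: 10 had a wild-type gene-end peak of any strength and 6 a KAT8-cKO one. The counts were 3 and 1 of 9 for T cell, 2 and 1 of 8 for B cell, 3 and 2 of 9 for neutrophil and 3 and 1 of 8 for fibroblast genes, against 46.8% and 43.3% of all protein-coding genes. In KAT8-cKO cells the macrophage share, 50%, was near that of all genes, though above those of the other types. With so few genes per type, the check does not settle the label. The part of cell makeup in the results was not tested.

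Wild-type peaks without a counterpart were less frequent at gene ends than elsewhere in the genome. Over the whole range of strength the lists differed most at gene ends in how often a peak stood alone, and at matched strength they differed in gene bodies and in part outside genes as well. In the same range of strength, 65.7% of 9953 wild-type peaks in gene bodies (64.8 to 66.6) and 63.6% of 7794 outside genes (62.5 to 64.6) had no KAT8-cKO overlap, against the 35.3% at gene ends. With the lists exchanged, KAT8-cKO peaks of the same range had no wild-type overlap in 63.1% of cases in gene bodies (62.2 to 64.1), 63.4% outside genes (62.4 to 64.4) and 22.9% at gene ends (21.8 to 24.0). In counts, 1905 wild-type and 1241 KAT8-cKO gene-end peaks stood alone, from 5394 and 5417 peaks. In gene bodies the counts were 6539 and 6124, and outside genes 4955 and 5139. These pooled shares mix strengths, and the KAT8-cKO list held more of its moderate peaks in the lowest range, with 6047 of 9699 in gene bodies against 4988 of 9953 in wild type. In gene bodies the wild-type share was above the KAT8-cKO share in each range, with separate intervals: 73.7% and 71.1% from 1.301 to 2, 65.0% and 58.3% from 2 to 3, 46.0% and 37.2% from 3 to 4, and 31.3% (27.2 to 35.8) and 21.2% (17.5 to 25.4) from 4 to 5. Outside genes the intervals were separate from 2 to 3, at 62.6% and 58.0%, and from 3 to 4, at 43.6% and 36.3%, and overlapped in the lowest range, at 73.3% and 72.1%, and the highest, at 29.4% and 28.4%. At gene ends the shares in the 4 ranges were 53.7% and 35.0%, 36.1% and 19.2%, 21.2% and 8.55%, and 14.5% and 5.16%. The libraries also differed in background, 3.09 against 3.68 fragments, and with 1 library per genotype a difference between libraries and one between genotypes cannot be told apart.

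Among gene ends, the excess of wild-type peaks standing alone was seen at starts, while at 3′ ends the intervals of the lists overlapped. Strand was known from the RefSeq promoter table for 83.9% of wild-type and 84.8% of KAT8-cKO moderate gene-end peaks outside chromosome 18, of which the table holds no promoter. At gene starts, 1175 of 3912 wild-type peaks had no counterpart (30.0%, 28.6 to 31.5), against 666 of 4010 KAT8-cKO peaks (16.6%, 15.5 to 17.8). Where the only ends within 1 kb were 3′ ends, the shares were 68.6% of 503 wild-type peaks (64.4 to 72.5) and 66.3% of 463 KAT8-cKO peaks (61.9 to 70.5). The latter values are close to those in gene bodies.

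The difference at gene starts was present at each level of strength. At a −log10 q from 1.301 to 2, 47.1% of wild-type and 26.5% of KAT8-cKO peaks at gene starts stood alone, and from 2 to 3 the shares were 31.8% and 14.6%. From 3 to 4 they were 18.75% and 5.12%, and from 4 to 5 13.7% (11.2 to 16.7) and 3.77% (2.46 to 5.76). At 3′ ends the intervals of the lists overlapped in all 4 ranges, with 77.3% of 273 and 70.9% of 309 peaks in the lowest range and 31.6% of 19 and 30.8% of 13 in the highest. With so few peaks, an overlap of intervals does not show that the lists were alike at 3′ ends.

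**Figure D1:**
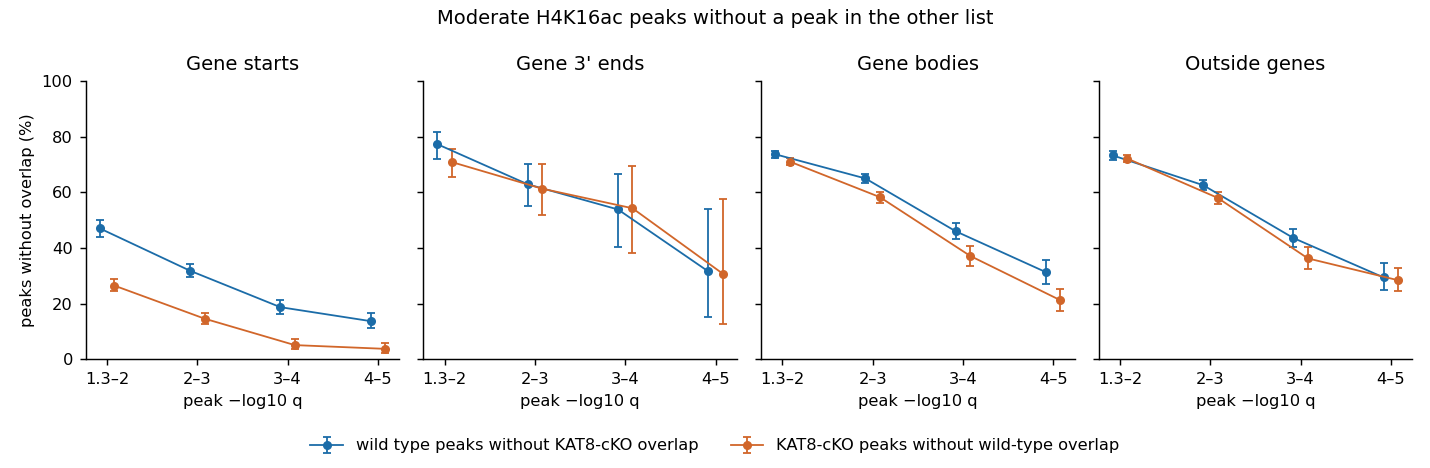
Share of moderate H4K16ac peaks without an overlapping peak in the other list (y axis, percent) by the peak's −log10 q (x axis) at gene starts, at 3′ ends, in gene bodies and outside genes; points are wild-type (blue) and KAT8-cKO (orange) peaks and bars are 95% Wilson intervals. The lists separate at gene starts, from 47.1% against 26.5% in the lowest range to 13.7% against 3.77% in the highest, and also in gene bodies in each range (65.0% against 58.3% from 2 to 3) and outside genes from 2 to 4 (43.6% against 36.3% from 3 to 4). Their intervals overlap at 3′ ends throughout.

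Within the moderate range the members were the weaker and narrower peaks. Of the members, 46.7% had a −log10 q under 2 and 5.56% one of 4 or more, against 21.9% and 17.9% of the overlapped peaks. Their median fold over the peak caller's background was 3.18 (quartiles 2.94 and 3.42), against 3.42 (3.15 and 3.76) for overlapped peaks; this fold is the authors' value and both sets come from the same library. Median width was 331 bp (238 and 467) against 531 bp (380 and 726). The width also differed within a range of strength, where the strength largely fixes the height at the summit: from 3 to 4 the medians were 421 and 598 bp, both with 17 fragments, and from 4 to 5 they were 420 and 634 bp, both with 19. Members of 200 bp, the least width in the lists, numbered 194, against 52 of the overlapped peaks, and 17 members (0.892%) but 237 overlapped peaks (6.79%) were 1 kb or wider. A wider peak offers more bases for an overlap, so width and the choice by overlap are not independent.

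**Figure D2:**
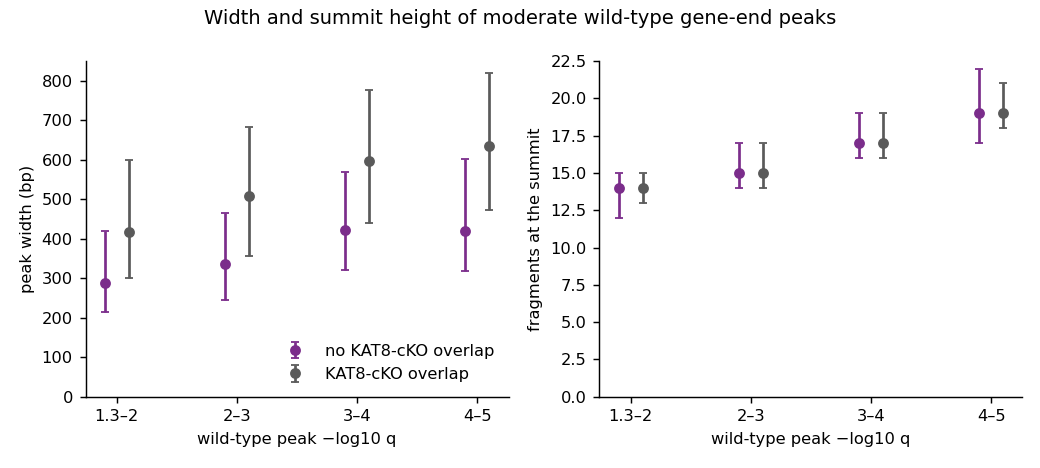
Peak width in bp (left) and fragments at the summit (right) of moderate wild-type gene-end peaks by their −log10 q, for peaks without (purple) and with (grey) a KAT8-cKO overlap; points are medians and bars span the quartiles over peaks. In the range from 4 to 5 the median widths were 420 and 634 bp while both medians of summit fragments were 19.

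At the edges of the rule, members and non-members had nearly equal values. The weakest member, within 1 kb of both Ltbr and Scnn1a, had a −log10 q of 1.3065, and the next peak under the limit, at Gm13271, had 1.30092. At the upper limit, the member at Exosc10 and Mtor had a −log10 q of 4.98 and a peak at Uqcc2, just outside, 5.02. The member at Gyg lay 999 bp from the gene end and a peak at Prkch 1004 bp. At Zfp825 the gap to the nearest KAT8-cKO peak was only 2 bp, and the overlapped peak at Hmgxb3 and LOC108168367 shared only 3 bp with its counterpart.

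Some members lay beside a KAT8-cKO peak that just missed them. A KAT8-cKO peak was found within 200 bp of 184 members (9.66%, 8.41 to 11.1), within 1 kb of 522 (27.4%, 25.4 to 29.4) and within 5 kb of 963 (50.6%). The median distance was 4919 bp, with quartiles of 837 and 12760 bp. For the 1241 KAT8-cKO peaks standing alone, a wild-type peak lay within 200 bp in 13.9% of cases and within 1 kb in 32.2%. Counted by gene, the members touched the windows of 2038 protein-coding genes. Of these, 841 had a KAT8-cKO peak of some strength elsewhere within 1 kb of an end and 1197 (58.7%) had none. A shared wild-type peak was also present at 504. Among all 21887 protein-coding genes, 9473 (43.3%) had a KAT8-cKO gene-end peak of any strength. Only 10249 (46.8%) of all genes had a wild-type one, whereas every gene with a member has one. The share lacking a KAT8-cKO peak among genes with a wild-type peak was not computed. Whether that lack was particular to genes with a member therefore cannot be read from these values.

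Where a counterpart did exist, it was usually the lower of the pair, though least so for the weakest wild-type peaks. Among the 3489 overlapped wild-type peaks the median fold was 3.42 in wild type and 3.08 in the KAT8-cKO peak over it, and the KAT8-cKO fold was lower in 70.0% of pairs (68.5 to 71.5). In 927 pairs (26.6%) the KAT8-cKO peak did not reach a q-value of 0.05. From the lowest to the highest range of strength the KAT8-cKO fold was lower in 52.8% (49.3 to 56.3), 68.3%, 77.7% and 83.0% of pairs. A peak picked in one list tends to be lower in the other whatever the cells, so the pairs were also read from the other side. When KAT8-cKO peaks of the same range were picked, the wild-type peak was the lower in 32.0% of 4176 pairs (30.6 to 33.5), with medians of 3.66 in wild type and 3.26 in KAT8-cKO cells. By range the wild-type peak was the lower in 25.9%, 31.9%, 36.6% and 42.5% of these pairs. Pooled over strengths, the wild-type fold was thus the higher in the larger part of the pairs from either side. Folds are relative to each library's own background. The picked peaks were held under a −log10 q of 5, and their counterparts were not. A −log10 q of 5 or more was reached by the KAT8-cKO counterpart in 241 of 3489 pairs (6.91%). With KAT8-cKO peaks picked, the wild-type counterpart reached it in 1267 of 4176 pairs (30.3%).

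With all strengths pooled, the members were spread more widely around gene starts than the overlapped peaks. Of the 1520 members with known strand, 77.3% lay at a start (75.1 to 79.3) and 22.7% at 3′ ends only, against 94.5% (93.7 to 95.3) and 5.46% of 2895 overlapped peaks. Among those at a start, the summit was within 200 bp of it for 47.8% of 1175 members (45.0 to 50.7) and 57.3% of 2737 overlapped peaks (55.4 to 59.1). The median summit lay 84 bp into the gene for members and 90 bp for overlapped peaks, and 62.1% and 66.1% were on the gene's side of the start. A window holding a single gene was the case for 1668 members, 235 lay within reach of 2 genes and 2 within reach of 3. Peaks within reach of 2 or more genes stood alone less often than those of a single gene, at 28.6% (25.6 to 31.8) against 36.5% (35.2 to 37.9) for wild-type peaks and 17.02% against 24.1% for KAT8-cKO peaks.

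**Figure D3:**
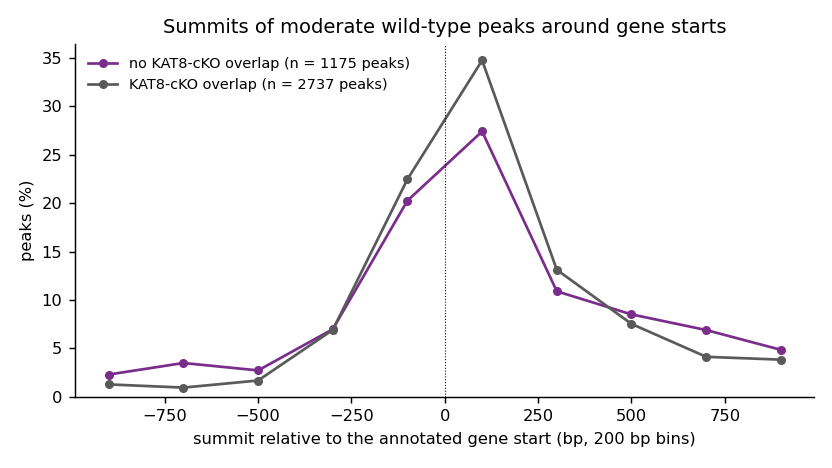
Position of the summit relative to the annotated gene start (x axis, bp, negative before the gene, in bins of 200 bp) as the percentage of peaks in each set (y axis), for 1175 members (purple) and 2737 overlapped wild-type peaks (grey) at gene starts with known strand. Both peak in the bin from 0 to 200 bp inside the gene, with 27.4% of members and 34.7% of overlapped peaks, and members are the more frequent beyond 400 bp on either side. All strengths are pooled.

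Where the summit lay in a promoter window, base composition differed little between members and overlapped peaks. The summit fell inside a RefSeq promoter window (250 bases before to 50 after a start) for 449 members and 1174 overlapped peaks, over 492 and 1324 distinct windows. These were 23.6% of the members and 33.6% of the overlapped peaks, and the values do not cover the other peaks. The windows of members had a median of 23 CG pairs (quartiles 16 and 31) and 62.7% G and C, those of overlapped peaks 24 (18 and 31) and 63.3%, and all 21006 windows of protein-coding genes 13 (4 and 24.75) and 56.7%. Windows with 5 or fewer CG pairs held 24 members and 30 overlapped peaks. In those windows 44.4% of 54 peaks stood alone (32.0 to 57.6), against 26.5% of 683 peaks (23.3 to 29.9) in windows with 26 or more. These shares pool all strengths, and within each of the 4 ranges the intervals overlapped. From 2 to 3 they were 47.8% of 23 peaks (29.2 to 67.0) and 32.3% of 229 (26.6 to 38.6).

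Matches to 12 motifs were counted on both strands in the windows of members, of overlapped peaks and of all protein-coding genes, and shares are given in that order. The GC box GGGCGG, bound by SP1 and its relatives, was in 68.9% of member windows (64.7 to 72.8), 73.6% of overlapped ones (71.1 to 75.9) and 46.6% of all windows. The ETS motif CCGGAAG, bound by housekeeping ETS factors such as GABPA, was in 24.0%, 25.4% and 11.7%. The motif of NRF1, a regulator of nuclear genes for mitochondria, was in 10.6% (8.15 to 13.6), 15.3% (13.4 to 17.3) and 6.45%. The CCAAT box was in 38.8%, 44.3% and 38.2%, the TATA box TATAAA in 5.08%, 4.53% and 12.5%, and the E-box CACGTG in 12.4%, 10.6% and 7.90%. The CRE motif TGACGTCA, found 2 times in the Heca sequence, was in 4.67% (3.13 to 6.92) of member windows, 2.57% (1.84 to 3.57) of overlapped and 2.25% of all. For motifs of inflammatory factors the shares were low throughout: AP-1 (TGANTCA) 3.46%, 3.63% and 6.99%, the interferon-stimulated response element 3.46%, 2.57% and 3.36%, and NF-κB 0.813%, 0.755% and 0.428%. PU.1 (GAGGAAG), a macrophage ETS factor whose motif shares the letters GGAAG with the ETS motif above, gave 11.6%, 12.7% and 13.3%, and YY1 (AAGATGG) 8.54%, 8.01% and 6.29%. With the summit in the window, the intervals of members and overlapped peaks overlapped for all 12 motifs. With any window that overlaps the peak (882 and 2783 windows) they separated for NRF1, at 9.18% (7.45 to 11.3) and 14.9% (13.6 to 16.2), and for the GC box, at 65.5% (62.3 to 68.6) and 71.4% (69.7 to 73.0). A match of letters is a description, not a binding site.

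The X chromosome had a higher share of moderate gene-end peaks without a counterpart than any autosome. On single autosomes it ran from 28.5% (chromosome 18) to 41.2% (chromosome 14) in wild type, and together it was 34.8% of 5291 peaks (33.5 to 36.1). On the X chromosome it was 56 of 94 peaks, 59.6% (49.5 to 68.9). For KAT8-cKO peaks the shares were 22.8% of 5356 on autosomes and 30.2% of 53 on the X chromosome (19.5 to 43.5). Away from gene ends the X chromosome did not stand above the autosomes: in gene bodies 36 of 60 X-linked peaks (47.4% to 71.4%) and 65.7% of autosomal peaks had no KAT8-cKO overlap, and outside genes 54.0% of 200 (47.1 to 60.8) and 63.7%. In the ranges of strength from 1.301 to 2, 2 to 3, 3 to 4 and 4 to 5 the X-linked gene-end shares were 72.0% of 25, 76.7% of 30, 37.9% of 29 and 40.0% of 10 peaks. The autosomal ones were 53.3%, 35.4%, 20.7% and 14.2%. The intervals were separate only from 2 to 3, at 59.1 to 88.2 on the X chromosome and 33.2 to 37.6 on autosomes. In the other ranges they overlapped. That X-linked genes more often had a peak in wild type alone was known from these same libraries before this comparison, so the X-linked value is no independent evidence.

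**Figure D4:**
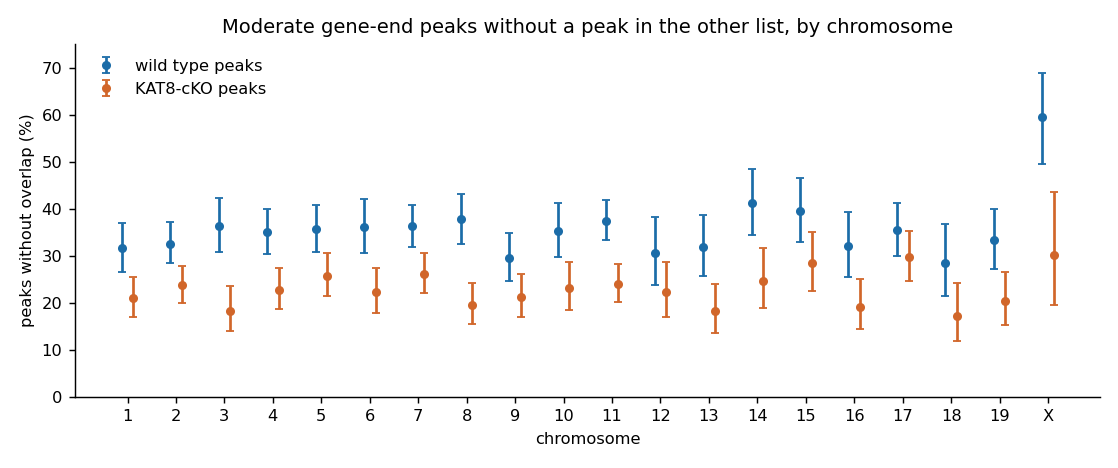
Share of moderate gene-end peaks without an overlapping peak in the other list (y axis, percent) on each chromosome (x axis; chromosome Y, with 9 and 8 peaks, is left out), for wild-type (blue) and KAT8-cKO (orange) peaks with 95% Wilson intervals. The wild-type share lies above the KAT8-cKO share on every chromosome drawn and is highest on the X chromosome, at 59.6%.

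The X-linked members with the highest folds were at Usp9x, Med14, Stag2 and Ppp1r3f. Usp9x, which encodes a deubiquitinase, carried the widest member, of 1568 bp (chrX:13070764-13072331), with a fold of 4.40 from 17 fragments over a background of 3.09. Its nearest KAT8-cKO peak was 28714 bp away. Med14 encodes a scaffold subunit of Mediator and Stag2 a subunit of cohesin, and both peaks also had a fold of 4.40, with the nearest KAT8-cKO peaks 88159 and 153746 bp away. Ppp1r3f, a regulatory subunit of protein phosphatase 1, had a fold of 4.25, and a KAT8-cKO peak lay 778 bp away. The deacetylase gene Hdac8 (fold 3.66) was farther still from a KAT8-cKO peak, at 385487 bp.

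The 8 strongest members by −log10 q lay at a gene start, with the exception of Mindy4 at a 3′ end and of Ppp1ca and Tbc1d10c, where the kind of end was not known. The peak at Exosc10, a catalytic subunit of the RNA exosome, and Mtor, the growth-controlling kinase, led with a −log10 q of 4.98, a fold of 3.92 and 22 fragments over a background of 4.86 (95% Poisson interval 13.8 to 33.3). Camsap2, which encodes a protein of microtubule minus ends, Wdr63 and Pgbd5 shared a −log10 q of 4.98, with a fold of 4.44 and 18 fragments over 3.28 (10.7 to 28.4). These 3 had the highest fold of all members. The peak at Camsap2 was 1064 bp wide and 68458 bp from any KAT8-cKO peak, while those at Wdr63 and Pgbd5 were 256 and 370 bp wide, and a KAT8-cKO peak lay 1069 bp from the latter. Next in strength were Mindy4 (4.96), the peak at Cage1 and Riok1 (4.94), Dock6 (4.94) and the peak at Ppp1ca, a catalytic subunit of protein phosphatase 1, and Tbc1d10c (4.91). At Cage1 and Riok1 a KAT8-cKO peak lay 199 bp away.

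By fold, 13 members tied at 4.40, each from 17 fragments over the genome-wide background. They included Rgl1, whose window also holds Arpc5, a subunit of the actin-nucleating Arp2/3 complex, Heca, Hs3st3a1, a heparan sulfate sulfotransferase, Ndufs4, a subunit of respiratory complex I, and Tnrc6b, a partner of Argonaute in microRNA silencing. The KAT8-cKO peak nearest to Tnrc6b was 38 bp away, with a fold of 2.98, so its absence of overlap rests on a narrow gap. For Ndufs4 and Hs3st3a1 the nearest lay 70285 and 67208 bp away. The next widest members after Usp9x were those at Adam1a (1232 bp, fold 3.66) and Ermp1 (1231 bp, fold 4.09). The comparison set had the same highest fold, 4.44, as at Naa30, Zfp719 and Pik3cb, and the KAT8-cKO peaks over them had folds of 5.31, 2.56 and 3.20.

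To see which macrophage programmes the members touch, 28 gene lists were counted. Of the 5598 genes with any moderate wild-type gene-end peak, 2038 had at least 1 member, 36.4%, and this is the share each list is read against. Below, the share of all genes means this 36.4%, and each list is counted over its genes with such a peak. Over all moderate wild-type gene-end peaks the median fold was 3.33. The lists were drawn up with earlier results on these libraries known, and neighbouring genes can share a peak.

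The inflammatory lists were small, and their intervals were wide. Of 16 TLR7 and MyD88 signalling genes with a moderate peak, 7 had a member (43.75%, 23.1 to 66.8), with a median fold of 3.18 among these peaks. They were the kinases Irak1 (fold 3.91) and Irak4 (3.42), the inhibitory family member Irak3 (3.57), Irak2, the TAK1 partner Tab1, the receptor chaperone Cnpy3 and the endolysosomal transporter Slc15a4. The member at Irak4 was at the gene's 3′ end. Among NF-κB subunits and regulators, 5 of 9 genes had one (55.6%, 26.7 to 81.1): Traf1 (3.45), Tnfaip3 (3.40), which encodes the inhibitor A20, Nfkbiz (3.18), which encodes the atypical IκB protein IκBζ, Tnfaip2 and Traf2. At Nfkbiz a KAT8-cKO peak with a higher fold, 3.84, lay 45 bp away, whereas at Tnfaip3 the nearest was 177474 bp away.

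Chemokine genes had a member at 5 of 6 genes (83.3%, 43.6 to 97.0), in 4 peaks: Cxcl2 (fold 3.96), whose product draws in neutrophils, Cxcl16 (3.27), Ccl9 (3.10) and a peak within reach of both Ccl3 and Ccl4. The sixth was Cxcl1, with an overlapped peak. The peak at Cxcl2 (chr5:90903492-90904067) had 17 fragments over 3.54 (9.90 to 27.2) and its summit was 30 bp before the start, in the sequence given above. None of the 5 genes had a KAT8-cKO peak within 1 kb of either end. Counted by peak, 4 of 5 moderate peaks at chemokine genes stood alone. A high share of chemokine genes was already known from these libraries. Of 5 inflammatory cytokine genes with a moderate peak, 2 had a member: Il10 (fold 3.55), an anti-inflammatory cytokine, and Il1rn (3.44), the interleukin-1 receptor antagonist.

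Of 29 interferon and interferon-stimulated genes with a moderate peak, 11 had a member (37.9%, 22.7 to 56.0), close to the share of all genes. Ifnar2 (3.95), a chain of the type I interferon receptor, Zbp1 (3.44), a sensor of Z-form nucleic acids, and Oas1a (3.31), an antiviral enzyme, led by fold. Each of these 3 had a KAT8-cKO peak within 1 kb, at 373, 292 and 593 bp. The others included Bst2, Eif2ak2, Ifngr2, Irf1, Oas3, Oasl1 and Tap1, and without any KAT8-cKO peak within 1 kb of a gene end the count fell from 11 to 5. Of 9 immediate early genes with a moderate peak, 4 had a member: Klf6 (3.77), Jund (3.30), Dusp2 (3.26), a phosphatase of MAP kinases, and Klf4.

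Macrophage identity genes had a member at 6 of 7 genes with a moderate peak (85.7%, 48.7 to 97.4). These were Mertk (3.62), the receptor for apoptotic cells, Laptm5 (3.47), a lysosomal membrane protein of blood cells, Batf2 (3.46), Cd68, Ctss and Tyrobp, an adaptor of activating receptors, and the seventh gene was Cd14. KAT8-cKO peaks lay 94 bp from the member at Mertk and 255 bp from that at Laptm5, which is at the gene's 3′ end, and only 3 of the 6 genes had no KAT8-cKO peak within 1 kb of either end. In the other direction, 4 of 7 moderate KAT8-cKO peaks at macrophage identity genes had no wild-type overlap, against 22.9% of all moderate KAT8-cKO gene-end peaks. Among genes of other cell types, 0 of 1 T cell, 1 of 2 B cell (Blk, fold 2.95) and 0 of 2 neutrophil genes with a moderate peak had a member, and no fibroblast gene of the list had a moderate peak.

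Genes of the acetylation machinery gave 6 of 14 (42.9%, 21.4 to 67.4), with the deacetylase genes Hdac8 (3.66) and Hdac5 (3.49), the acetyltransferase gene Kat6a (3.40), Sirt6 and Sirt7 among them. Of 4 genes of KAT8's own complexes with a moderate peak, only Msl3 had a member. That member had a fold of 3.18 and 12 fragments over 3.09, and a KAT8-cKO peak lay 35 bp from it.

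Among lists of broadly expressed genes the share with a member ran from 17.4% to 54.2%. The lowest was that of DNA repair, with 4 of 23 genes (6.98 to 37.1), among them Fancg (3.27), and these genes had a higher median fold among their moderate peaks, 3.56. The proteasome list gave 5 of 24 (20.8%), with Psmd14 (3.70) and Psmb7 (3.66), and a median fold of 3.73 among its moderate peaks. The respiratory chain and ATP synthase list gave 8 of 37 (21.6%, 11.4 to 37.2), with Ndufs4 (4.40) and Ndufc1 (3.69). Its median fold was 3.18. Aminoacyl-tRNA synthetases gave 5 of 20 (11.2% to 46.9%), with Pars2 (3.02), and Zfp zinc finger genes 33 of 132 (18.4% to 33.0%), with a peak at both Zfp942 and Zfp943 (4.40) and with Zfp773 (4.15). The Zfp list is the only one whose interval lay wholly under the share of all genes, and its moderate peaks had a median fold of 3.42.

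Splicing factors gave 11 of 39 (28.2%), with Sf3b5 (4.15), Srsf6 (3.66) and Srsf3 (3.50), cell cycle and replication genes 5 of 17 (29.4%), with E2f6 (3.74) and Cdk2 (3.28), and cytosolic ribosomal proteins 11 of 37 (29.7%, 17.5 to 45.8), with Rps27 (4.07, in a peak that also lies at Rab13) and Rpl13 (4.01). None of those 11 ribosomal protein genes had a KAT8-cKO peak within 1 kb of either end. Mitochondrial ribosomal proteins gave 13 of 41 (31.7%), with Mrpl58 (3.72) and Mrpl33 (3.598). Ubiquitin-specific proteases gave 7 of 18 (38.9%), with Usp9x and Usp11 (4.15), both X-linked. Lysosome and autophagy genes gave 16 of 37 (43.2%, 28.7 to 59.1), with the proton pump subunit Atp6v1e1 (3.65) and the lysosomal channel Mcoln1 (3.32), and translation initiation factors 13 of 30 (43.3%), with Eif5a2 (4.22), Eif4ebp2 (3.93) and the Y-linked Eif2s3y (3.91). At Eif5a2 a KAT8-cKO peak lay 77 bp away. Rab GTPases, which direct membrane traffic, had the highest of these shares, 13 of 24 (35.1 to 72.1), with Rab8b (4.40) and Rab32 (4.04), and their interval included the share of all genes.

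Genes of smell and of body patterning, known from other tissues, also had members. Of 9 olfactory receptor genes with a moderate peak, 6 had one (66.7%, 35.4 to 87.9), led by Olfr784 (3.91), and of 8 developmental homeobox genes 6 did (40.9% to 92.9%), led by Hoxa4 (4.11). Chemokines, macrophage identity and homeobox genes were the lists whose intervals lay wholly above 36.4%, each with 8 or fewer genes with a moderate peak. The same lists were also high with the lists of peaks exchanged: 2 of 2 moderate KAT8-cKO peaks at chemokine genes, 4 of 7 at macrophage identity genes and 4 of 7 at homeobox genes had no wild-type overlap, against 22.9% of all. For olfactory receptors this count was 5 of 7 and for Zfp genes 29 of 169.

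**Figure D5:**
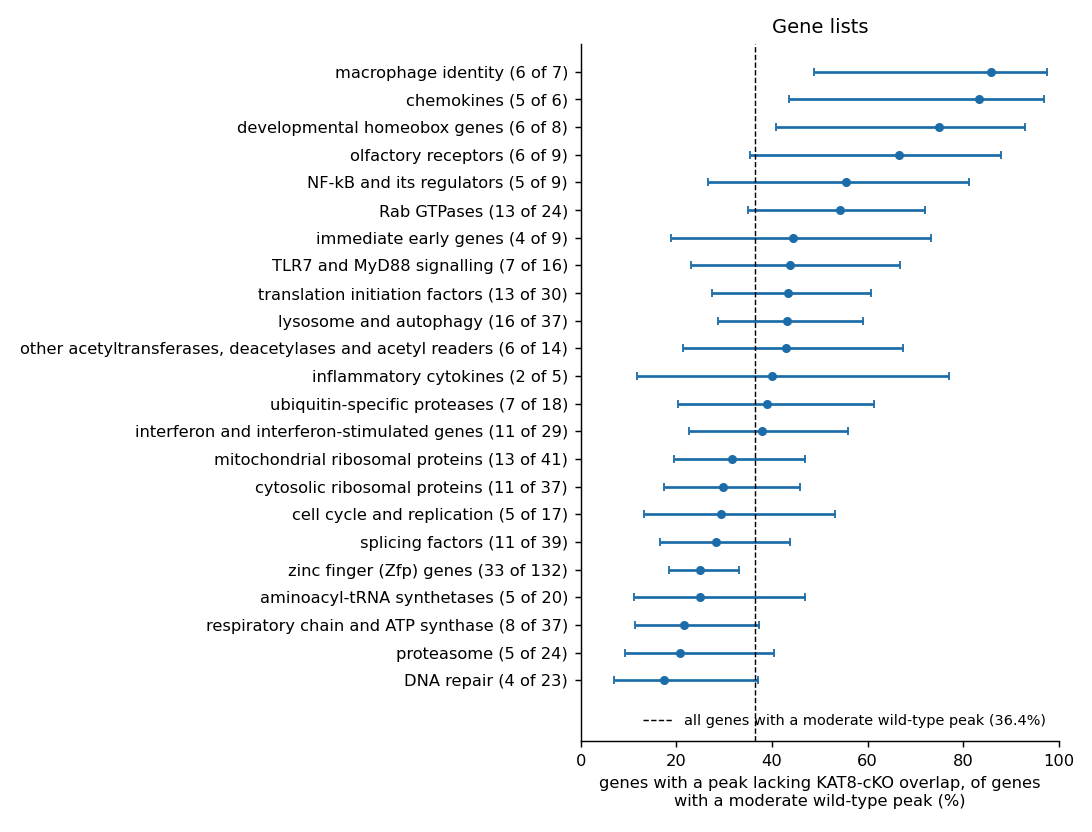
Percentage of genes with a moderate wild-type gene-end peak that had at least 1 such peak without KAT8-cKO overlap (x axis), for the gene lists with at least 5 such genes (y axis, with counts); bars are 95% Wilson intervals and the dashed line is the 36.4% of all genes. Macrophage identity, chemokine and homeobox genes lie above the line with their whole interval and Zfp genes under it. KAT8-cKO peaks standing alone, not drawn, were 4 of 7, 2 of 2 and 4 of 7 moderate KAT8-cKO peaks in the first 3 of these lists, against 22.9% of all.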

How the data were processed

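CUT&Tag for H4K16ac was deposited as 1 peak list per genotype (wild type and KAT8-cKO). The submitters' processing notes name Bowtie (0.12.8), MACS2 (2.2.7.1), DiffBind and mm10, without roles. No source used here tells of a control library, duplicate removal or thresholds. In the lists the authors deposited, every peak has a score, a fold (ratio) over background, −log10 p and −log10 q (p-value and q-value scales) and a summit offset; lists were made per library. Gene positions, strands and promoter sequences came from RefSeq (GRCm38.p6): 21887 protein-coding genes, 17492 of them with a strand. Overlap needed 1 bp. Fragments and background were solved from fold and p as (fragments + 1)/(background + 1) and a Poisson tail, to within 0.001 in −log10 p. Local backgrounds were multiples of 0.02 for over 99.9% of the peaks above the genome-wide level, the step of a 200 bp read in a 10 kb window. The code for overlap and fragment recovery was run on simulated data built with the same formulas, which checks the code and not the data. Intervals are 95% Wilson or exact Poisson (Python 3.11.15, scipy 1.17.1, statsmodels 0.14.6); with 1 library per genotype no test was possible. Members, lists and comparisons were chosen with earlier results of these data known. Genes named are the 8 members with the highest −log10 q and the 8 with the highest fold (ties by position), the 3 widest, up to 3 per list by fold, up to 4 X-linked, up to 3 with members at both ends, the 3 overlapped peaks with the highest fold and those at the rule's limits; other list genes are named without values, a few list genes are not reported here by name, and the 3 list members whose sequence is printed were taken from the inflammatory and macrophage lists, a choice made after values were seen. Alternatives varied the overlap, window, strength range and genes per window.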

Additional observations from a re-analysis of the deposited data

How the results depend on the processing

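The share of moderate gene-end peaks standing alone moved with the definition, but it was higher in the wild-type than in the KAT8-cKO list under all 9 alternatives. In wild type (35.3%) and KAT8-cKO cells (22.9%) it became 55.2% and 34.5% when 50% of the peak had to be covered, 31.9% and 19.7% when a peak within 200 bp counted, 25.6% and 15.5% when one within 1 kb counted, and 52.0% and 33.0% when only counterparts with a q-value under 0.05 counted. Windows of 500 bp gave 31.1% and 17.7%, windows of 3 kb 43.1% and 31.7%, a lower limit of 2 27.2% and 13.4%, an upper limit of 3 44.5% and 28.7%, and peaks with a single gene 36.5% and 24.1%. On the X chromosome (59.6%) and autosomes (34.8%) the same alternatives gave, in that order, 70.2% and 54.9%, 56.4% and 31.4%, 53.2% and 25.1%, 74.5% and 51.5%, 57.1% and 30.6%, 61.5% and 42.8%, 55.1% and 26.6%, 74.5% and 43.9%, and 61.3% and 36.0%.

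The share in gene bodies exceeded that at gene ends by 30.4 percentage points and the share outside genes by 28.3 points. From the lowest to the highest range of strength these gaps were 19.9, 28.9, 24.9 and 16.8 points and 19.5, 26.5, 22.4 and 14.9 points. They were 31.0 and 30.6 points when a peak within 1 kb counted, and 26.2 and 23.5 points with counterparts of q under 0.05. Median folds by range were 2.96, 3.33, 3.70 and 4.02 for members and 2.97, 3.35, 3.72 and 3.99 for overlapped peaks, which follows from ranging by strength, and widths stayed within the quartiles given. The share at a gene start was 69.8%, 81.2%, 86.1% and 93.1% of members and 89.9%, 94.0%, 96.9% and 97.5% of overlapped peaks by range, and 75.9% and 93.7% by the end nearest the summit. Of all list genes with a moderate peak 33.8% had a member, 24.5% when a peak within 1 kb counted as an overlap, and 21.1% when genes with any KAT8-cKO peak in their window were left out. Median CG counts were 22 and 23 for windows that overlap the peak; of 24 motif shares only the CCAAT box of overlapped peaks moved beyond its interval, to 40.1%.

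No paired analysis was possible because each genotype has 1 library. Depth limits single sites most, since a summit of 12 fragments has an interval of 6.20 to 21.0. Shares over many peaks have narrower counting intervals, but neither describes variation between animals. The KAT8-cKO library had the higher background, and the part of depth, signal to background or cell state in the difference between the lists was not tested.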

Other observations

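At 103 genes more than 1 member lay within reach, with 3 the most at a single gene, and 45 genes over 2 kb long had a member at each end. Ttll13 had the highest fold among these, 4.11 at its start, in a peak with 17 fragments, and 3.13 at the other end, where the window also holds the start of Ngrn. Sardh, the mitochondrial sarcosine dehydrogenase, had peaks at its start with folds of 3.92 and 3.57 and one at its 3′ end with 2.68, and Mab21l3 had folds of 3.91 and 3.05. A KAT8-cKO peak lay 109 bp from the 3′ member of Mab21l3 and 207 bp from the Ngrn side of Ttll13, while at Sardh the nearest was 2799 bp away. Another wild-type peak lay within 1 kb of 24.0% of members (22.1 to 25.96) and of 21.5% of overlapped peaks (20.2 to 22.9). Within 5 kb the shares were 49.2% (47.0 to 51.5) and 42.4% (40.8 to 44.0), so members had other wild-type peaks nearby somewhat more often. Genes with a member were shorter, with a median of 17376.5 bp, than those with an overlapped moderate peak, 21629 bp, and near the 17169 bp of all protein-coding genes.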
